A study of Mus musculus with 12 samples.

Results

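The Ugt2 genes encode UDP-glucuronosyltransferases, and 7 of them were examined in the livers of female mice given testosterone: Ugt2b38, Ugt2b1, Ugt2b5, Ugt2b34, Ugt2b35, Ugt2b36 and Ugt2a3. The members were taken by the gene symbol that the platform annotation gives each probe set, which found 6 probe sets for 5 of the 7 genes among 22690 probe sets and 12393 named genes. Ugt2b34 had 2 probe sets, the other 4 genes had 1 each, and Ugt2b35 and Ugt2b36 had none and were not analysed here. A further close relative, Ugt2b37, belongs to a list of other glucuronosyltransferases and is described beside the members because it went the other way, a choice made after its values were seen.

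The livers came from 12 females of C57BL/6, an inbred mouse strain, and the RNA of each was hybridised to an Affymetrix array of its own. Testosterone mice received 0.9 mg of the hormone in sesame oil under the skin, 2 times per week for 3 weeks, and vehicle mice received 100 µl of the oil alone on the same schedule. Sampling was either directly after the last week of injections (the end of treatment) or later, after withdrawal, which gave 4 groups of 3 mice: testosterone at the end, vehicle at the end, testosterone after withdrawal and vehicle after withdrawal. The sample titles give 12 weeks of withdrawal and the series' design text gives 3 weeks, so that length is not settled here. No source used here states the age of the mice. Per the labels, the comparison asks how testosterone acts on the female liver over a short and a long term.

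UDP-glucuronosyltransferases sit in the membrane of the endoplasmic reticulum and join glucuronic acid, carried by UDP, to small fat-soluble molecules, which can then leave in bile and urine. Enzymes of the Ugt2b group act on steroids, among them androgens and their breakdown products, and on many drugs, and the liver is their main site. Mouse liver differs between the sexes in many enzymes of steroid and drug handling, with the pulses of growth hormone as the best known signal, read through the factor STAT5 and the repressors Bcl6 and Cux2.

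The genes lie next to each other on chromosome 5. In the RefSeq annotation (GRCm38.p6) the order along the chromosome is Ythdc1, Ugt2b34, Ugt2b1, Ugt2b35, Ugt2b36, Ugt2b5, Ugt2b37, Ugt2a3, Ugt2b38, Ugt2a1, Ugt2a2 and then the sulfotransferase genes Sult1b1, Sult1d1 and Sult1e1. RefSeq held a promoter sequence for all 7 listed genes and for Ugt2b37. The promoters of 4 genes are printed because these genes gave the changes described below, Ugt2b38, Ugt2b5 and Ugt2b1 upward and Ugt2b37 downward. Each is the 250 bases before the annotated start, 5′ to 3′ on the gene's own strand, which is the minus strand in all 4: chr5:87424204-87424453 for Ugt2b38, chr5:87254789-87255038 for Ugt2b37, chr5:87140341-87140590 for Ugt2b5 and chr5:86926504-86926753 for Ugt2b1. Capitals mark a run of 62 bases that Ugt2b38, Ugt2b37 and Ugt2b5 share letter for letter, and Ugt2b1 has no capitals because it lacks the run.
Ugt2b38: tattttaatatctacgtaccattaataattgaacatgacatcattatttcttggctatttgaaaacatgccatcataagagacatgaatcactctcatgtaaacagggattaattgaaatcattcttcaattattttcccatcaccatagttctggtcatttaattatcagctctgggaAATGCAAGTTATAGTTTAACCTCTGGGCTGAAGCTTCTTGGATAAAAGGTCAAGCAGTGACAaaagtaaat
Ugt2b37: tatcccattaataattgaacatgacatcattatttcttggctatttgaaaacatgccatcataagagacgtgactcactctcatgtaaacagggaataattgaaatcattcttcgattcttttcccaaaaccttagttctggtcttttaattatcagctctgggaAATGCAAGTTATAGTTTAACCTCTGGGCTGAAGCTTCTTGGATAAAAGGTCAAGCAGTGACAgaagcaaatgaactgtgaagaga
Ugt2b5: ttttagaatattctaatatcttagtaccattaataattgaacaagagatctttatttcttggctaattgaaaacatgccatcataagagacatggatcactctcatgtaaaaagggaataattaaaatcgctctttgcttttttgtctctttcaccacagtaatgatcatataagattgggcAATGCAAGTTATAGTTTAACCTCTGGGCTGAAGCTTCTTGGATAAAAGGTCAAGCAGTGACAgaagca
Ugt2b1: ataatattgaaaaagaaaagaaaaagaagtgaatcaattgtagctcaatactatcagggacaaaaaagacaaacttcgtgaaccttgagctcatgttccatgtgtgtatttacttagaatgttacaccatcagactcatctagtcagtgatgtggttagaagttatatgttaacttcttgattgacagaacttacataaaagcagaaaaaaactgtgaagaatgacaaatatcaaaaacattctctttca

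The shared run was found after the sequences had been seen. It ends 10 bases before the start of Ugt2b38, 24 bases before that of Ugt2b37 and 7 bases before that of Ugt2b5, and only these 3 of 32851 mouse promoters held it. Aligned over the 250 bases, Ugt2b38 matched Ugt2b37 at 85.2% and Ugt2b5 at 81.5% of positions, and Ugt2b5 matched Ugt2b37 at 73.0%. All other pairs among the 8 promoters matched at 47.2% to 60.4%. The 3 genes with the shared run did not change alike: Ugt2b38 and Ugt2b5 rose with testosterone and Ugt2b37 fell, as given below. Of the motifs searched on both strands from 250 bases before to 50 after the start, the STAT5 motif TTCNNNGAA was in none of the 8 promoters and in 8.30% of all mouse promoters. The short HNF1 motif GTTAAT was in Ugt2a3 alone, 54 and 47 bases before its start, and in 7.10% of all promoters. The short androgen receptor motif AGAACA was in Ugt2b34, 209 bases before the start on the opposite strand, and in Ugt2b36, 14 bases after the start, against 19.0% of all promoters. None of the 8 held the full HNF1 motif (0.00913% of all promoters), which contains the short one, the HNF4 motif CAAAGTCCA (0.475%) or the CAR motif (0.00609%). A match or its absence describes letters in this window only.

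Values below are deposited array signals, on a linear scale that the authors set so that every array has the same trimmed mean. Signals are compared between mice for 1 probe set at a time, never between genes, because probe sets differ in brightness for reasons other than the amount of RNA. Folds are ratios of geometric means, and log2 changes come from limma on all 12 arrays with their standard error (SE). A change was called at an adjusted p under 0.05 over 7217 genes. All 5 measured members passed the filter on dim genes. Ugt2b38 did so mainly through the testosterone mice: it lay above the array median in 6 of 6 of these, against 1 of 6 vehicle mice, so that its passing was not independent of its change. The others lay above it on all 12 arrays.

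At the end of treatment 3 of the 5 members were higher in testosterone livers and none was lower, where 9.42% of all tested genes were called higher, 8.01% lower and 17.4% in either direction. The median log2 change of the members was 0.26, against 0.04 for all tested genes. After withdrawal the same 3 members, Ugt2b38, Ugt2b1 and Ugt2b5, were again higher and none was lower, where 2.74% of all tested genes were called higher, 3.26% lower and 6.00% in either direction. The members' median was then 0.44, against -0.04 for all genes. In 4 of 5 members the testosterone and vehicle mice did not overlap at either time, where 35.7% of all genes did not overlap at the end and 25.9% after withdrawal. The 3 enzymes differed in size of change, which at the end was 7.14-fold for Ugt2b38, 1.90-fold for Ugt2b1 and 1.20-fold for Ugt2b5.

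The ratio of the 3′ to the 5′ beta-actin control probe sets, a sign of RNA quality, did not overlap between the treatments at the end. It was 2.11 ± 0.0769 in testosterone and 1.52 ± 0.108 in vehicle mice (exact permutation test, p = 0.1, the smallest that 3 mice against 3 allow), and 1.62 ± 0.179 and 1.77 ± 0.154 after withdrawal (exact permutation test, p = 0.2). The same ratio for Gapdh at the end was 0.930 ± 0.0254 in testosterone and 0.763 ± 0.0316 in vehicle mice (exact permutation test, p = 0.1). With the beta-actin ratio as a covariate, 1 of the 3 members called at the end stayed called, Ugt2b1. Ugt2b38 then had a log2 change of 3.07 (adjusted p = 0.0880), and only 78 of all genes were called, against 1258 without the covariate. After withdrawal, where the ratios overlapped, the same covariate left all 3 members called.

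The array medians lay between 20.03 and 22.4, arrays of 1 group correlated (log2 signal, across probe sets) at 0.979 to 0.989, and arrays of different groups at 0.969 to 0.982. Hepatocyte markers, 6 of 7 with a probe set, summed to 27910 to 29089 with testosterone and 27466 to 29533 with vehicle at the end. After withdrawal they summed to 27915, 32319 and 33446 with testosterone and 29508, 27165 and 26048 with vehicle (mice 1, 2 and 3). Endothelial markers, 5 of 5, summed to 286 to 449 over all mice, and cholangiocyte markers, 4 of 5, to 21.0 to 61.2. In both of these lists the treatments overlapped at each time. The cholangiocyte markers were dim: Krt19 lay above the array median on 2 arrays, Sox9 on 1, and Krt7 and Epcam on none. Kupffer cell and macrophage markers, 7 of 7, summed to 1339 to 1717 in testosterone and 1990.0 to 3143 in vehicle mice at the end, and to 1203 to 1291 and 1053 to 1810 after withdrawal. Stellate cell markers, 6 of 6, summed to 1335 to 1491 in testosterone and 1428 to 1697 in vehicle mice at the end, and to 1574 to 1595 and 1827 to 1973 after withdrawal. Most of the stellate sum came from Dcn and Reln, while Des, Lrat and Col1a1 lay above the array median on no array. Intestinal markers, 3 of 5, summed to 527 to 602 and 401 to 479 at the end and to 491 to 608 and 417 to 481 after withdrawal, a sum made up almost wholly of Fabp2, while Vil1 and Cdx1 lay at or under the floor on all 12 arrays. Exocrine pancreas markers, 7 of 9, summed to 395, 955 and 49.996 in the testosterone mice after withdrawal, in the order mouse 1, 2 and 3, and to at most 86.1 in any other mouse. Mouse 2 of these was highest in Ugt2b38 as well, and without it the log2 change of Ugt2b38 after withdrawal was 2.62 (adjusted p = 0.000256). The kidney markers, 5 of 5, were above the array median on no array. The part of hepatocytes and of Kupffer, stellate, intestinal and pancreatic cells in the Ugt2 changes was not tested beyond the values given. In bulk liver fewer cells of a type and less RNA per cell cannot be told apart.

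**Figure D1:**
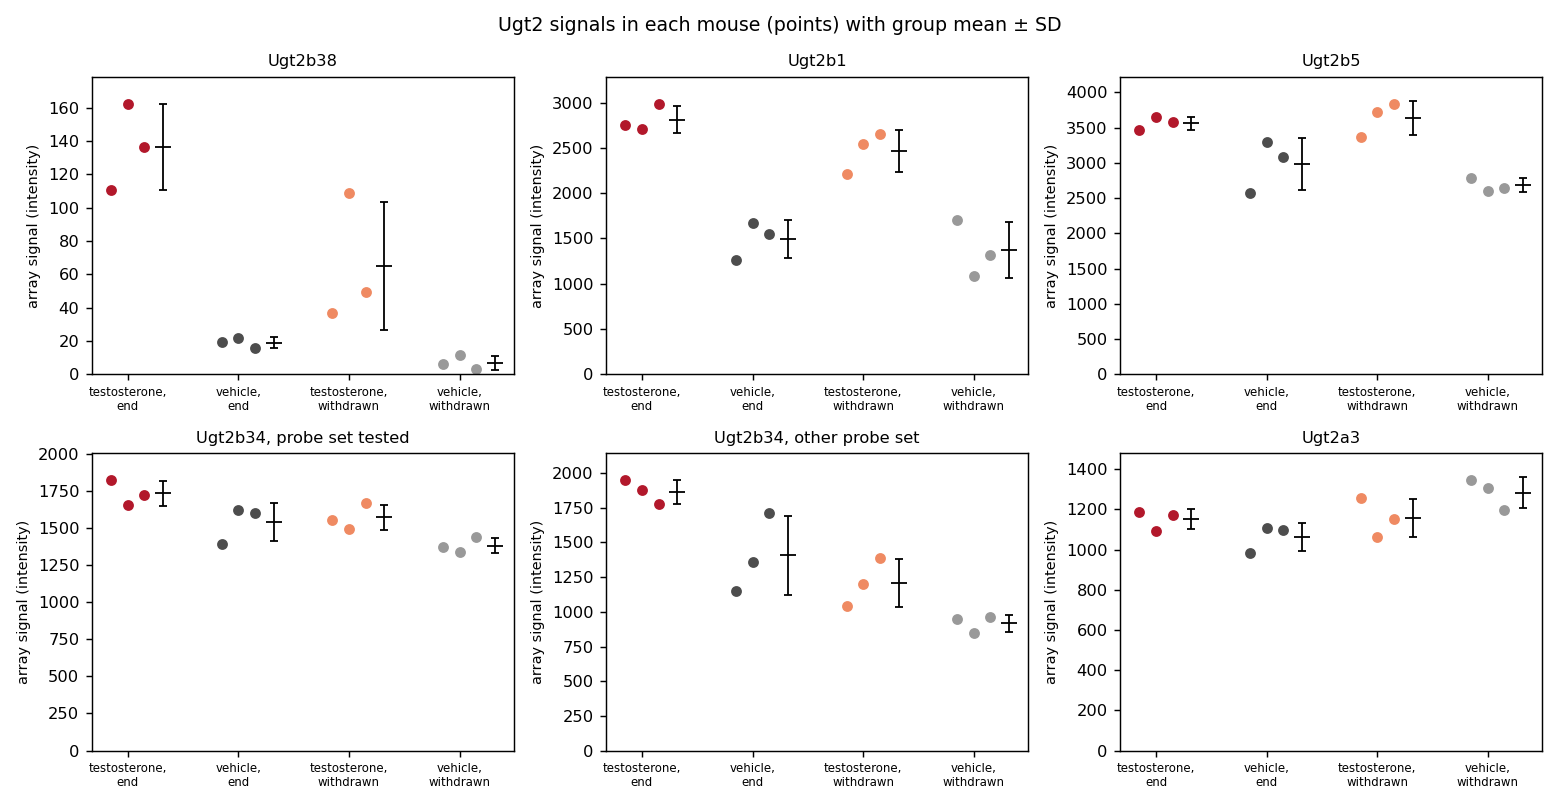
Deposited array signal of each Ugt2 probe set in each mouse (1 point per mouse, linear axes from 0, 1 panel per probe set), with the group mean ± SD (n = 3) to the right of each group, in the order testosterone and vehicle at the end, then testosterone and vehicle after withdrawal. Ugt2b38 averaged 136 in testosterone mice at the end and 19.04 in vehicle mice, while the 2 treatments overlapped for Ugt2a3 at both times.

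Ugt2b38, an enzyme of the steroid-conjugating Ugt2b group, had the widest change of the 5 members. At the end of treatment its signal was 110.5, 162 and 136 in the 3 testosterone mice, against 19.6, 21.8 and 15.8 in the 3 vehicle mice. The 2 treatments were far apart, and no mouse lay between them. The means were 136 ± 25.8 in testosterone mice and 19.04 ± 3.03 in vehicle mice (SD, n = 3 each), a 7.14-fold difference. The log2 change was 2.84 ± 0.36 (SE, adjusted p = 0.00011), which ranked 6 of 7217 genes by increase.

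After withdrawal Ugt2b38 was dimmer in both treatments and still separated them. It gave 36.7, 109 and 49.4 in testosterone mice and 5.92, 11.6 and 3.16 in vehicle mice, the last of which lies under the floor of 4.84 below which signals were not told apart. The means were 65.03 ± 38.6 and 6.91 ± 4.32 (SD, n = 3 each), with the floor in place of the dimmest signal at least an 8.40-fold difference. The spread among the 3 mice was wider than at the end of treatment, with a coefficient of variation of 59.4% in testosterone mice and 62.6% in vehicle mice after withdrawal, against 18.9% and 15.9% at the end. The log2 change was 3.07 ± 0.36 (adjusted p = 7.38e-05), ranked 9 of 7217. The change in the testosterone effect between the times was 0.23, with a 95% interval of -0.85 to 1.32 (adjusted p = 0.827), an interval that holds both smaller and larger effects after withdrawal.

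Both treatments lost Ugt2b38 signal between the times. In vehicle mice it was at least 2.72-fold lower after withdrawal than at the end (log2 change -1.44 ± 0.36, adjusted p = 0.0140). In testosterone mice it was 2.31-fold lower (log2 change -1.21 ± 0.36, adjusted p = 0.0432), and the groups were separated only narrowly, by 109 in the brightest withdrawn mouse against 110.5 in the dimmest mouse at the end. The order of the 4 group means ran from testosterone at the end through testosterone after withdrawal and vehicle at the end to vehicle after withdrawal. No neighbours in that order overlapped, and the withdrawn testosterone mice, at 36.7 or above, stayed over the vehicle mice at the end, at 21.8 or below. The call over time in testosterone mice was lost under 11 of 24 alternatives and that in vehicle mice under 4 of 24.

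Ugt2b1, a liver enzyme studied mainly in the rat, where it conjugates testosterone and many drugs, was the second in size of change. At the end its signal was 2753, 2704 and 2984 in testosterone mice, against 1259, 1667 and 1544 in vehicle mice. The means were 2814 ± 149 and 1490.1 ± 209 (SD, n = 3 each), a 1.90-fold difference with a log2 change of 0.93 ± 0.14 (adjusted p = 0.000400). After withdrawal the mice gave 2210.3, 2540.1 and 2652 with testosterone and 1701, 1087 and 1320 with vehicle. The treatments were again fully separated, at means of 2467 ± 229.6 and 1369 ± 309.7, a 1.83-fold difference with a log2 change of 0.87 ± 0.14 (adjusted p = 0.00111). Over time neither treatment changed Ugt2b1 past the threshold, with log2 changes of -0.14 in vehicle mice (adjusted p = 0.523) and -0.19 in testosterone mice (adjusted p = 0.409). The effect after withdrawal minus that at the end was -0.06, with an interval of -0.47 to 0.36. Both testosterone calls held under all 25 alternatives.

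Ugt2b5, one of the main steroid and drug glucuronosyltransferases of mouse liver, rose by a smaller amount. At the end its signal was 3464, 3649.9 and 3573 in testosterone mice, against 2577, 3293 and 3084 in vehicle mice. The treatments did not overlap, although the dimmest testosterone mouse and the brightest vehicle mouse were close. The means of 3562 ± 93.3 and 2985 ± 368 gave a 1.20-fold difference with a log2 change of 0.26 ± 0.08 (adjusted p = 0.0431). This call was near the threshold and was lost under 14 of 25 alternatives, among them the fit without the first vehicle mouse of that time, where the log2 change was 0.16. After withdrawal the signal was 3362, 3718 and 3832 in testosterone mice and 2791, 2604 and 2646 in vehicle mice. The means were 3637 ± 245 and 2680.4 ± 97.8, a 1.36-fold difference with a log2 change of 0.44 ± 0.08 (adjusted p = 0.00517), and this call held under all 25. Between the times Ugt2b5 had log2 changes of -0.15 in vehicle mice (adjusted p = 0.237) and 0.03 in testosterone mice (adjusted p = 0.876), neither of them called, and the difference of the effects was 0.18 (interval -0.08 to 0.43).

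Ugt2b34 lies at one end of the gene row, beside Ugt2b1, and its 2 probe sets disagreed on the calls. The probe set used in the fit, the brighter one by mean log2 signal over all 12 arrays though not in every group, is of the shared type. The name of that type marks possible matches to several transcripts. The other is not of that type. The probe set used in the fit gave 1819, 1656 and 1724 in testosterone mice at the end, against 1392, 1623 and 1599 in vehicle mice. After withdrawal it gave 1553, 1496 and 1665 with testosterone and 1369, 1336 and 1439 with vehicle. The treatments were separated by a narrow gap at both times. The differences were 1.13-fold at the end (log2 change 0.17 ± 0.08, adjusted p = 0.139) and 1.14-fold after withdrawal (0.19 ± 0.08, adjusted p = 0.189), and neither was called.

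The other Ugt2b34 probe set gave 1946, 1876 and 1775 in testosterone mice at the end and 1148, 1360.5 and 1710.2 in vehicle mice. After withdrawal it gave 1038, 1203 and 1386 with testosterone and 947, 849 and 962 with vehicle. In a fit of every probe set it was 1.34-fold higher with testosterone at the end (log2 change 0.43 ± 0.13, adjusted p = 0.0312) and 1.31-fold higher after withdrawal (0.39 ± 0.13, adjusted p = 0.105), of which the first was called. It was dimmer after withdrawal than at the end in both treatments, by 1.51-fold in vehicle mice (adjusted p = 0.00750) and 1.55-fold in testosterone mice (adjusted p = 0.00671), where the brighter probe set had log2 changes of -0.15 (adjusted p = 0.194) and -0.14 (adjusted p = 0.275). Both probe sets were brighter in testosterone mice at both times, without overlap, and they differed in whether the change at the end and the changes with time were called.

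Ugt2a3, the 1 listed member of the Ugt2a group, did not separate the treatments. Its signal at the end was 1185, 1093 and 1173 in testosterone mice and 983, 1106 and 1098 in vehicle mice, which overlap. After withdrawal it was 1255, 1062 and 1153 in testosterone mice and 1343, 1308 and 1196 in vehicle mice, which overlap too. The log2 changes were 0.12 ± 0.08 at the end (interval -0.06 to 0.30, adjusted p = 0.372) and -0.15 ± 0.08 after withdrawal (interval -0.33 to 0.03, adjusted p = 0.335). In vehicle mice Ugt2a3 was 1.21-fold higher after withdrawal than at the end, with no overlap (log2 change 0.27 ± 0.08, adjusted p = 0.0378), a call lost under 12 of 25 alternatives. In testosterone mice its log2 change over time was 0.01 (adjusted p = 0.977).

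**Figure D2:**
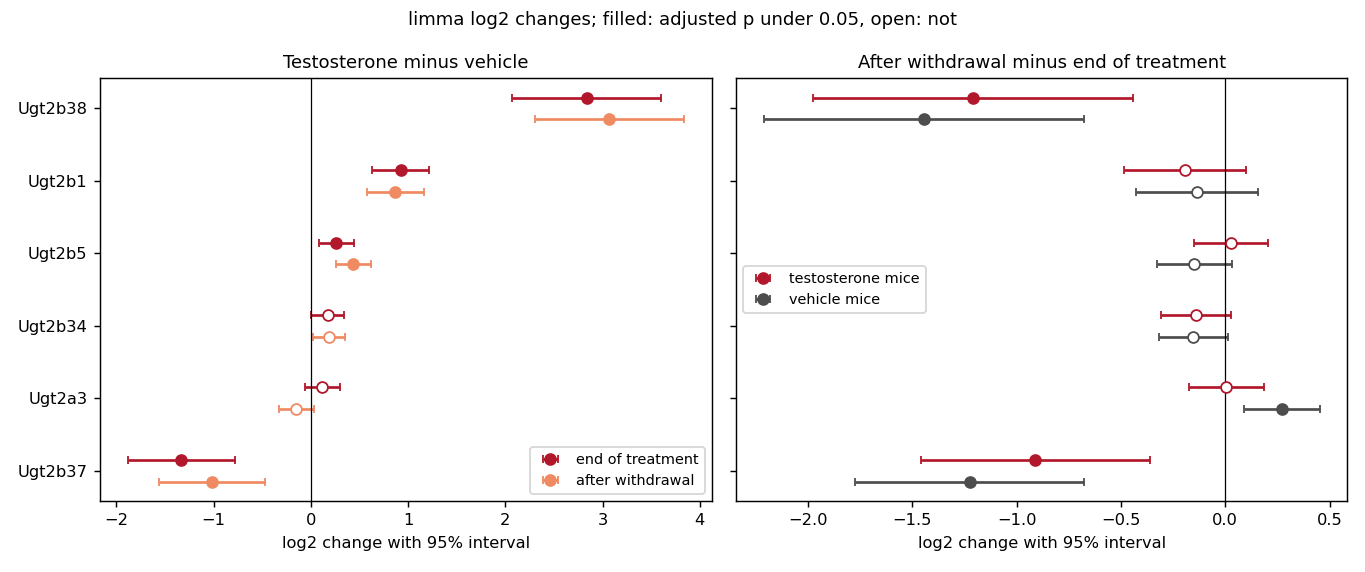
limma log2 change with its 95% interval for each gene on a shared list down the page: testosterone minus vehicle at the end and after withdrawal (left panel), and after withdrawal minus end of treatment in testosterone and in vehicle mice (right panel). Filled points have an adjusted p under 0.05. Ugt2b38, Ugt2b1 and Ugt2b5 lie to the right of 0 at both times in the left panel and Ugt2b37 to the left.

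No member's testosterone effect differed between the times by limma at an adjusted p under 0.05, where 2.19% of all tested genes were called, 0.790% with a higher and 1.40% with a lower effect after withdrawal. At an unadjusted p under 0.05 there was 1 of the 5 members, Ugt2a3, with a difference of -0.27 ± 0.12 (adjusted p = 0.209). Of all 7217 tested genes, 1580 were under that unadjusted threshold, so 1 member of 5 is near the background. With time in vehicle mice 2 of the 5 members were called, Ugt2b38 lower and Ugt2a3 higher, where 17.8% of all genes were called, 6.83% lower and 11.0% higher. With time in testosterone mice 1 of 5 was called, Ugt2b38, which was lower, where 10.9% of all genes were called, 5.31% lower and 5.57% higher. The members' groups did not overlap in 2 of 5 for vehicle mice over time (35.1% of all genes) and in 2 of 5 for testosterone mice (31.0%), which is near those backgrounds. All these comparisons share samples: the vehicle mice at the end, for example, enter both the testosterone comparison at that time and the vehicle comparison over time.

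**Figure D3:**
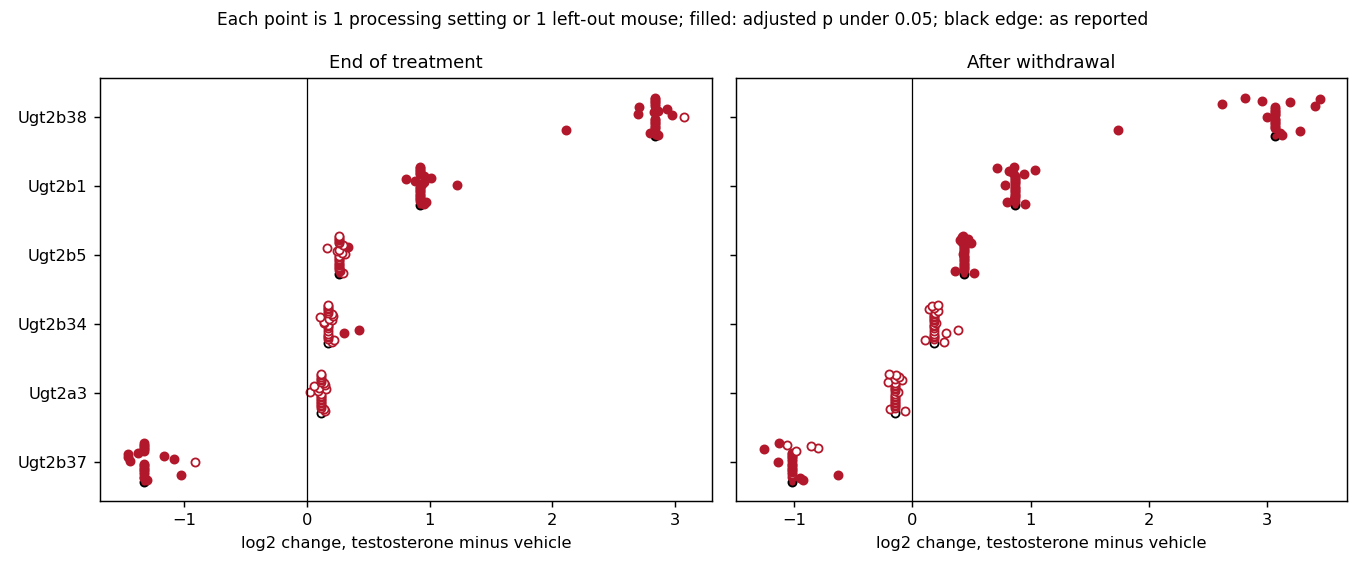
limma log2 change of testosterone minus vehicle for the 5 members and Ugt2b37 under the reported setting (black edge) and each alternative setting or left-out mouse, at the end of treatment (left) and after withdrawal (right), with filled points for an adjusted p under 0.05 and small vertical offsets only to part the points. Ugt2b1 is filled at both times under every alternative, and Ugt2b5 at the end is open under 14 of 25.

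Ugt2b37, a neighbour of Ugt2b5 whose promoter holds the shared run, was lower with testosterone. At the end its signal was 41.5, 25.3 and 42.2 in testosterone mice, against 112.5, 74.7 and 83.9 in vehicle mice. Every vehicle mouse was brighter than every testosterone mouse. The means were 36.3 ± 9.60 and 90.4 ± 19.7 (SD, n = 3 each), a 2.52-fold lower signal with a log2 change of -1.33 ± 0.26 (adjusted p = 0.00304). With the beta-actin ratio as a covariate this log2 change was -0.91 (adjusted p = 0.553), no longer called. After withdrawal it was 18.03, 26.4 and 14.03 in testosterone mice and 47.4, 35.8 and 32.6 in vehicle mice, 2.02-fold lower (log2 change -1.02 ± 0.26, adjusted p = 0.0286), a call lost under 5 of 24 alternatives. It also fell with time, like Ugt2b38, by 2.34-fold in vehicle mice (adjusted p = 0.00566) and 1.88-fold in testosterone mice (adjusted p = 0.0346), a call lost under 9 of 24 alternatives. In both genes the group means were lower after withdrawal than at the end under the same treatment, although for Ugt2b37 the testosterone mice of the 2 times overlapped, and testosterone mice were brighter than vehicle mice in Ugt2b38 and dimmer in Ugt2b37. Which relatives each probe set can bind was not tested, since probe sequences were not used here.

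**Figure D4:**
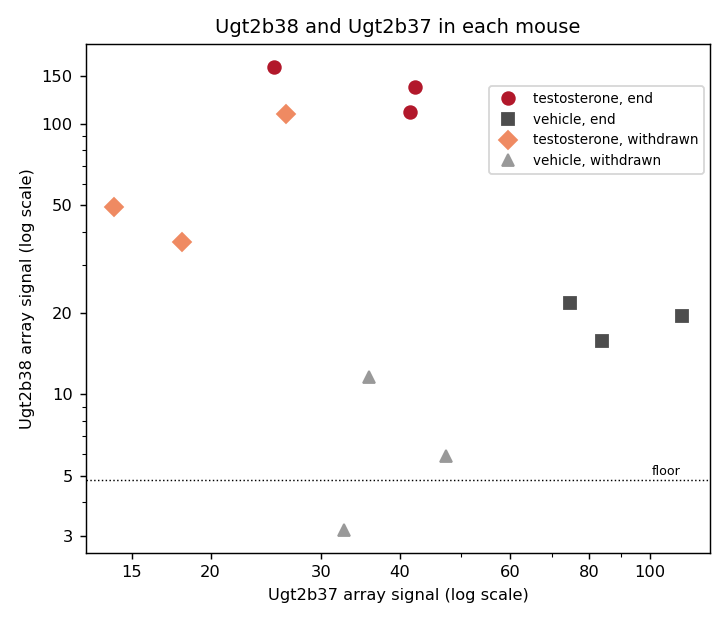
Array signal of Ugt2b38 against Ugt2b37 in each of the 12 mice, both on log axes, by group, with the floor of 4.84 dotted. At each time the testosterone mice lie above and to the left of the vehicle mice, and withdrawn mice lie below and to the left of the mice at the end under the same treatment, apart from overlap of the testosterone groups in Ugt2b37.

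The log2 signals of the 5 members moved together to different degrees over the 12 arrays. As a description, with groups and arrays shared, Pearson's r was 0.926 for Ugt2b1 with Ugt2b5, 0.857 for Ugt2b38 with Ugt2b1 and 0.840 for Ugt2b38 with Ugt2b5. Ugt2b34 correlated with these 3 at 0.733 to 0.793, and Ugt2a3 with the others at -0.370 to -0.0933. The tested genes most like each member were chosen by the same measure. For Ugt2b38 they were Ttc39c (r = 0.973), the vesicle coat subunit Sec23b (0.962) and the aldehyde oxidase Aox3 (0.959). For Ugt2b1 they were the steroid enzyme Hsd3b2 (0.983), the carboxylesterase Ces2a (0.978) and Nat8f5 (0.965). For Ugt2b5 they were Ndufa4 (0.968), Hsd3b5 (0.946) and Hsd3b2 (0.929). For Ugt2b34 they were Serinc1 (0.972), Gde1 (0.935) and Akr1c12 (0.901), and for Ugt2a3 Rap1a (0.954), Atp5h (0.928) and Zfp160 (0.924).

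The tested genes that flank the row did not show the pattern of Ugt2b38, Ugt2b1 and Ugt2b5. Sult1e1 had a probe set and was not among the genes tested. Ythdc1, which reads methylated adenosine in RNA, rose at the end (log2 change 0.64, adjusted p = 0.00575) and had a change of -0.35 after withdrawal (adjusted p = 0.151). Sult1b1, a sulfotransferase, fell at the end by 0.75 on the log2 scale (adjusted p = 0.0106) and had a change of -0.03 after withdrawal (adjusted p = 0.955). Its relative Sult1d1 fell at the end by 0.70 (adjusted p = 0.00880) and had a change of -0.54 after withdrawal (adjusted p = 0.0599).

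Of the 15 other glucuronosyltransferase genes listed, 4 had a probe set of their own and 3 of these passed the filter. Probe sets annotated to several Ugt1a genes, or to Ugt2a1 and Ugt2a2 together, were not used. With testosterone, Ugt2b37 was the 1 called at either time, and the median log2 change of the 3 was 0.08 at the end and 0.19 after withdrawal, against 0.04 and -0.04 for all genes. Over all genes 8.01% were called lower at the end and 3.26% after withdrawal. Ugt3a1, whose human counterpart uses a sugar other than glucuronic acid, had a signal of 271 ± 35.3 in testosterone and 257 ± 37.7 in vehicle mice at the end, a log2 change of 0.08 (adjusted p = 0.734). It rose with time in testosterone mice by 1.51-fold (adjusted p = 0.0160). In vehicle mice it was 1.29-fold higher with time, which was not called (adjusted p = 0.0848). Its testosterone effect did not differ between the times at the threshold (adjusted p = 0.563).

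Of 10 genes listed for the supply of UDP-glucuronic acid, 7 were tested, and 1 was higher and none lower at each time, where 9.42% of all genes were called higher at the end and 2.74% after withdrawal. The medians were -0.14 at the end and 0.02 after withdrawal, against 0.04 and -0.04 for all genes. It was Slc35b1, a nucleotide carrier of the endoplasmic reticulum membrane for which transport of ATP has also been described. Its signal was 389 ± 48.3 in testosterone and 243 ± 28.3 in vehicle mice at the end, 1.60-fold higher (adjusted p = 0.00119), and 1.59-fold higher after withdrawal (adjusted p = 0.00240). Ugdh, the enzyme that makes UDP-glucuronic acid, averaged 877 ± 137 in testosterone and 749.7 ± 78.7 in vehicle mice at the end (log2 change 0.22, adjusted p = 0.273), and its log2 change after withdrawal was -0.01 (adjusted p = 0.987).

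Among 12 genes for the cleavage, retention and transport of glucuronides, 9 were tested: 4 were higher and 2 lower at the end, and 2 higher and 1 lower after withdrawal, where 17.4% of all genes were called in either direction at the end and 6.00% after withdrawal. The medians were 0.24 and -0.11, against 0.04 and -0.04 for all genes. Abcg2, a pump that exports conjugates, averaged 400.2 ± 28.8 in testosterone and 177 ± 38.4 in vehicle mice at the end (2.29-fold higher, adjusted p = 4.47e-05) and was 1.73-fold higher after withdrawal (adjusted p = 0.00238). Slco1a1, an uptake carrier for organic anions, averaged 1146 ± 137 in testosterone and 261 ± 62.7 in vehicle mice at the end (adjusted p = 0.0435), and 1083 ± 184 and 41.8 ± 56.2 after withdrawal (adjusted p = 9.38e-05). Slco1a4, another uptake carrier, was lower in testosterone livers at both times, at 437 ± 125 against 917 ± 12.6 at the end (adjusted p = 0.000401) and 532 ± 82.7 against 863 ± 134 after withdrawal (adjusted p = 0.0189).

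Enzymes that make or remove steroid substrates were called in both directions. Of 19 listed, 14 were tested: 5 were higher and 2 lower at the end, and 4 higher and none lower after withdrawal, where 9.42% of all genes were called higher and 8.01% lower at the end, and 2.74% and 3.26% after withdrawal. The medians were 0.17 and 0.08, against 0.04 and -0.04 for all genes. Hsd3b5, a steroid reductase known from male mouse liver, averaged 1095 ± 150.5 in testosterone and 21.6 ± 20.5 in vehicle mice at the end (adjusted p = 1.76e-06), and 778 ± 277 and 0.633 ± 0.241 after withdrawal (adjusted p = 3.93e-07), the last under the floor. Hsd3b5 passed the filter mainly through the testosterone mice, so that its passing was not independent of its change. Hsd3b2 was 3.23-fold higher at the end (adjusted p = 0.000350) and 2.87-fold higher after withdrawal (adjusted p = 0.00135). Hsd3b3 averaged 1018 ± 152 in testosterone and 395 ± 125 in vehicle mice after withdrawal (2.64-fold, adjusted p = 0.000228). At the end Hsd3b3 was 1.44-fold higher, which was not called (adjusted p = 0.0630). Akr1d1, which reduces steroids at the 5-beta position in bile acid synthesis, fell at the end to 362 ± 35.7 in testosterone mice, against 794 ± 69.8 in vehicle mice (adjusted p = 5.1e-06). After withdrawal Akr1d1 was 1.21-fold lower, which was not called (adjusted p = 0.142). Its testosterone effect differed between the times (log2 change 0.86, adjusted p = 0.0116).

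Of 25 transcription factors known to act on Ugt genes or on sex-biased liver genes, 19 were tested: 5 were higher and 4 lower at the end, and 1 higher and 3 lower after withdrawal, where 9.42% of all genes were called higher and 8.01% lower at the end, and 2.74% and 3.26% after withdrawal. The medians were -0.02 and -0.09, against 0.04 and -0.04 for all genes. Cux2, a repressor typical of female mouse liver, was lower with testosterone at both times, at 1.23 ± 0.569 against 29.9 ± 8.18 at the end (adjusted p = 8.12e-05) and 4.51 ± 3.55 against 32.5 ± 3.93 after withdrawal (adjusted p = 0.000152). Both testosterone means lie under the floor of 4.84, and Cux2 passed the filter through the vehicle mice, so that its passing was not independent of its change. Nr1i3, the drug receptor CAR, was 2.23-fold lower at the end (adjusted p = 0.000401) and Foxa1, a liver factor, 2.09-fold higher (adjusted p = 0.000208). Neither was called after withdrawal, when Nr1i3 was 1.44-fold lower (adjusted p = 0.0865) and Foxa1 1.18-fold higher (adjusted p = 0.381). After withdrawal Bcl6, a repressor typical of male mouse liver, was 8.04-fold higher, at 179 ± 43.03 in testosterone and 22.2 ± 5.03 in vehicle mice (adjusted p = 1.49e-06), and Foxa2 was 1.85-fold lower (adjusted p = 0.000735). At the end Foxa2 was higher with testosterone, at 110 ± 16.5 against 73.5 ± 10.9 (log2 change 0.58, adjusted p = 0.00837). Its testosterone effect differed between the times (log2 change -1.47, adjusted p = 0.00107). With time Foxa2 rose in vehicle mice, to 189 ± 14.3 (adjusted p = 1.6e-05). In testosterone mice Foxa2 averaged 102 ± 2.62 after withdrawal, a change with time that was not called (adjusted p = 0.690). At the end Bcl6 averaged 58.7 ± 20.5 in testosterone and 56.9 ± 7.03 in vehicle mice (log2 change -0.01, adjusted p = 0.976).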

How the data were processed

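Per the submitters' processing notes the arrays went through GCOS and MAS5, whose versions are not given. The authors deposited 1 linear intensity for each probe set and array, already scaled: the 2% trimmed mean was 100.05 on all 12 arrays, and no scaling was added. The sample titles set the groups, and the series' design text calls the 3 mice of a group individual animals. No 2 arrays were identical. With 3 arrays a group, precision is limited.

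The platform annotation gave a single symbol to 20380 probe sets, several to 691 and none to 1555, and another 64 were controls. RefSeq held the Entrez ID of 20351. A floor of 4.84, the 25th percentile of non-control signals, was applied before log2, and a fold is written "at least" where it rests on a floored mouse on the dimmer side. Each gene was represented by its probe set of highest mean log2 signal (12393 genes), and 7217 above the array median on 3 or more arrays were tested. The fit had 4 group means (R 4.3.3, limma 3.58.1, lmFit, then eBayes with trend). P-values are two-sided and adjusted by Benjamini-Hochberg over all genes tested, and the code was tested on simulated data. Tables and promoters were handled with Python 3.11.15, pandas 2.3.3 and Biopython 1.88.

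The members, the lists and the tests were chosen with earlier results of these data known. The text names every member, up to 3 called genes of each list by size of change in each of the 2 testosterone comparisons, and for each member the 3 genes most correlated with it. Ugdh, Bcl6 at the end, Foxa2 at the end and with time, Ugt3a1 and the flanking genes were named after their values were seen. So were Nr1i3, Foxa1 and Akr1d1 after withdrawal, Hsd3b3 at the end, and the differences between the times of Foxa2 and Akr1d1. The replicate numbers do not pair the mice: deviations from the group means correlated at -0.194 to 0.00565 between mice of the same number and at -0.153 to 0.183 between others.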

Additional observations from a re-analysis of the deposited data

How the results depend on the processing

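The reported setting was set against 25 alternatives in scaling, floor, filter, probe set choice, model and left-out mice, and the 9 called changes of the listed members kept their direction in all 221 values, with the call kept in 179 and lost in 42. The counts of members called after withdrawal (3) and for the difference between the times (0) did not move by over 1.5 times. At the end the count of 3 became 1 with the beta-actin ratio as a covariate, which left 78 of all genes called. It became 2 with arrays centred on the median, no filter and genes above the median on all 12 arrays. The count was also 2 with no variance trend, only the arrays compared and the replicate block. It was 4 with the mean of all probe sets of a gene and with shared probe sets left out. With 1 mouse left out it ranged from 2 to 3. With time in vehicle mice the count of 2 became 1 with arrays centred on the median, log2(signal + 16), genes above the median on all 12 arrays (a filter that drops Ugt2b38), no variance trend, only the arrays compared and the replicate block, 0 with no filter and with the beta-actin covariate, and ranged from 0 to 2 with 1 mouse left out. With time in testosterone mice the count of 1 became 0 with a floor of 1, no filter, the filter on all 12 arrays, no variance trend and the covariate, 2 with shared probe sets left out, and ranged from 0 to 1 with 1 mouse left out.

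With the replicate number as a block, which does not pair the mice, 1025 of all genes were called at the end (1258 without it), 355 after withdrawal (433), 55 for the difference between the times (158), 1021 with time in vehicle mice (1288) and 624 in testosterone mice (785). The Ugt2b5 call at the end was lost under the block (adjusted p = 0.0509), as under median centring, no filter, no variance trend, only the arrays compared, the covariate (adjusted p = 0.542) and 8 of the 12 left-out mice. Ugt2b38 after withdrawal kept its call in the 24 alternatives that tested it, at log2 changes of 1.74 to 3.44. Ugt2b34 was called at the end with the mean of its probe sets (0.30, adjusted p = 0.0496) and with shared probe sets left out (0.43, adjusted p = 0.0314). The Ugt2b37 calls were kept in 80 of 96 values: with the covariate the calls at the end (-0.91, adjusted p = 0.553) and with time in vehicle mice (-1.03, adjusted p = 0.111) were lost, the call with time in testosterone mice was lost under 9 of 24 alternatives, and after withdrawal the call was lost with no filter, without testosterone mouse 1 or 3 and without vehicle mouse 1 or 2 of that time.

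Only changes that were not called turned in sign. For the difference between the times, Ugt2b38 turned with log2(signal + 16) (-0.37), the covariate (-0.072) and 1 mouse left out (range -0.22 to 0.61), Ugt2b1 with 1 mouse left out (-0.21 to 0.11), Ugt2b34 with quantile normalization (-0.11), the mean of its probe sets (-0.014), shared probe sets left out (-0.039) and 1 mouse left out (-0.032 to 0.081), and Ugt2b37 with the covariate (-0.22). With time in vehicle mice Ugt2b1 turned with the covariate (0.0014) and 1 mouse left out (-0.31 to 0.018). With time in testosterone mice Ugt2b5 turned with median centring (-0.017), quantile normalization (-0.068), the covariate (-0.0082) and 1 mouse left out (-0.011 to 0.084), and Ugt2a3 with median centring (-0.040), quantile normalization (-0.0087) and 1 mouse left out (-0.055 to 0.066). The cause of these moves was not tested. Signals near the floor, as for Ugt2b38 in vehicle mice after withdrawal, limit how large a fold can be measured.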
